A study of Drosophila melanogaster with 36 samples.

Results

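The 10 genes described here encode the phototransduction cascade of the fly eye below rhodopsin: norpA (CG3620), trp (CG7875), trpl (CG18345), inaD (CG3504), inaC (CG6518), Arr1 (CG5711), Arr2 (CG5962), ninaC (CG5125), rdgA (CG10966) and Gbeta76C (CG8770). They were chosen by gene id for their known place in the pathway, and they are 10 of the 14010 genes in the deposited table. Of these ids, 9 were matched directly, and rdgA was read under CG34344, another id that RefSeq lists for the gene. Transcripts were counted with 3′ RNA-seq, in which only the end of each polyadenylated RNA is read, in heads of the wild-type Drosophila melanogaster strain Canton-S, for which the labels name no mutation or transgene. The flies were kept in 12 h of light and 12 h of darkness at 18, 25 or 29°C for at least 3 days, and heads were collected at Zeitgeber time (ZT, hours after lights on) 3, 7, 11, 15, 19 and 23. The age and sex of the flies are not given in the sources used here. According to the labels there were 36 libraries, a pair per temperature and time point, but the deposited normalised read counts come as 18 columns, 1 per pair. The columns named ZT19 correspond to libraries labelled zt18. A single column per pair leaves no replicate error at a time point, so temperatures were compared over their 6 time points, each SD given is taken over them and holds the daily change as well, and the p-values measure the spread between these columns only.

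In the photoreceptors of Drosophila, light-activated rhodopsin switches on a heterotrimeric Gq protein, which activates the phospholipase C encoded by norpA. Hydrolysis of the membrane lipid PIP2 then opens the cation channels TRP and TRPL, and calcium that enters through them feeds back on nearly every step. The scaffold protein INAD holds TRP, the phospholipase and an eye-specific protein kinase C (inaC) together in the light-sensing microvilli, and arrestins end the response by binding activated rhodopsin. In a whole head these transcripts come mainly from the compound eyes, and in such bulk RNA fewer cells of a type and less RNA per cell cannot be told apart.

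The reads recovered on genes ranged from 736538 to 2750250 per column, and all 10 genes passed the filter on low counts, with sums over the 18 columns from 1692 reads for rdgA to 233666 for Arr2. The labelled tissue was checked with 7 photoreceptor markers, all of which were detected, with the rhodopsin gene ninaE highest. The summed level of these 7 markers was 11133–14543, 15633–22759 and 13517–20638 at 18, 25 and 29°C, but ninaE made up 90.8–95.6% of it, and the other 6 summed to 860–1105, 818–1171 and 954–1394. Markers of other head tissues also moved with temperature. Fat body markers were higher at 18 than at 25°C for 4 of 5 genes (median log2 change of the list 0.65), and none of them was called at 29 relative to 25°C. At 29 relative to 25°C, 3 of 4 glia markers, 2 of 4 muscle markers and 2 of 6 neuron markers were called lower. The glia markers summed to 2004–2589, 1822–2266 and 969.5–1176 at 18, 25 and 29°C, the muscle markers to 2255–3203, 2219–5305 and 1428–2286, and the neuron markers to 161–311, 141–348 and 97.9–285. The muscle sum of 5305 was that of the 25°C ZT7 column, where Act88F alone held 2546. The other columns at 25°C held at most 2516. A pair of columns stood apart by tissues outside the head. The 4 midgut markers summed to 4644 in the 25°C ZT7 column and 1074 in the 29°C ZT19 column against at most 8.98 elsewhere, and the 5 accessory gland markers to 444 at 29°C ZT19 against at most 5.72. Without both columns, the calls of the fat body marker Yp2 for 18 against 25°C (limma adjusted p = 0.0578) and the neuron marker Rdl for 29 against 25°C (0.0851) ended. The part of these marker changes in the results below was not tested. There, calls of a change in level that end without both columns are named beside the genes.

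The level of several cascade genes differed between temperatures, and not all in the same direction. The phospholipase gene norpA, the channel gene trp and the arrestin gene Arr2 rose at 29°C relative to 25°C, by 0.63, 0.46 and 0.52 on the log2 scale, whereas the Gβ gene Gbeta76C fell by 0.46. At 18°C relative to 25°C, the channel gene trpl and the kinase gene inaC fell by 0.40 and 0.49, and the scaffold gene inaD rose by 0.44. Between the extremes, norpA, trp, trpl, inaC and Arr2 were lower at 18 than at 29°C and inaD was higher. Some of these calls were lost under alternatives, which are given with each gene below. They are those of trpl, inaC and inaD for 18 against 25°C, of norpA for 29 against 25°C and of inaD for 18 against 29°C. Levels were compared with limma on log2(value + 1), so that fold changes are on that scale, and p-values were adjusted over all 8791 genes tested by Benjamini-Hochberg, with a threshold of 0.05.

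**Figure D1:**
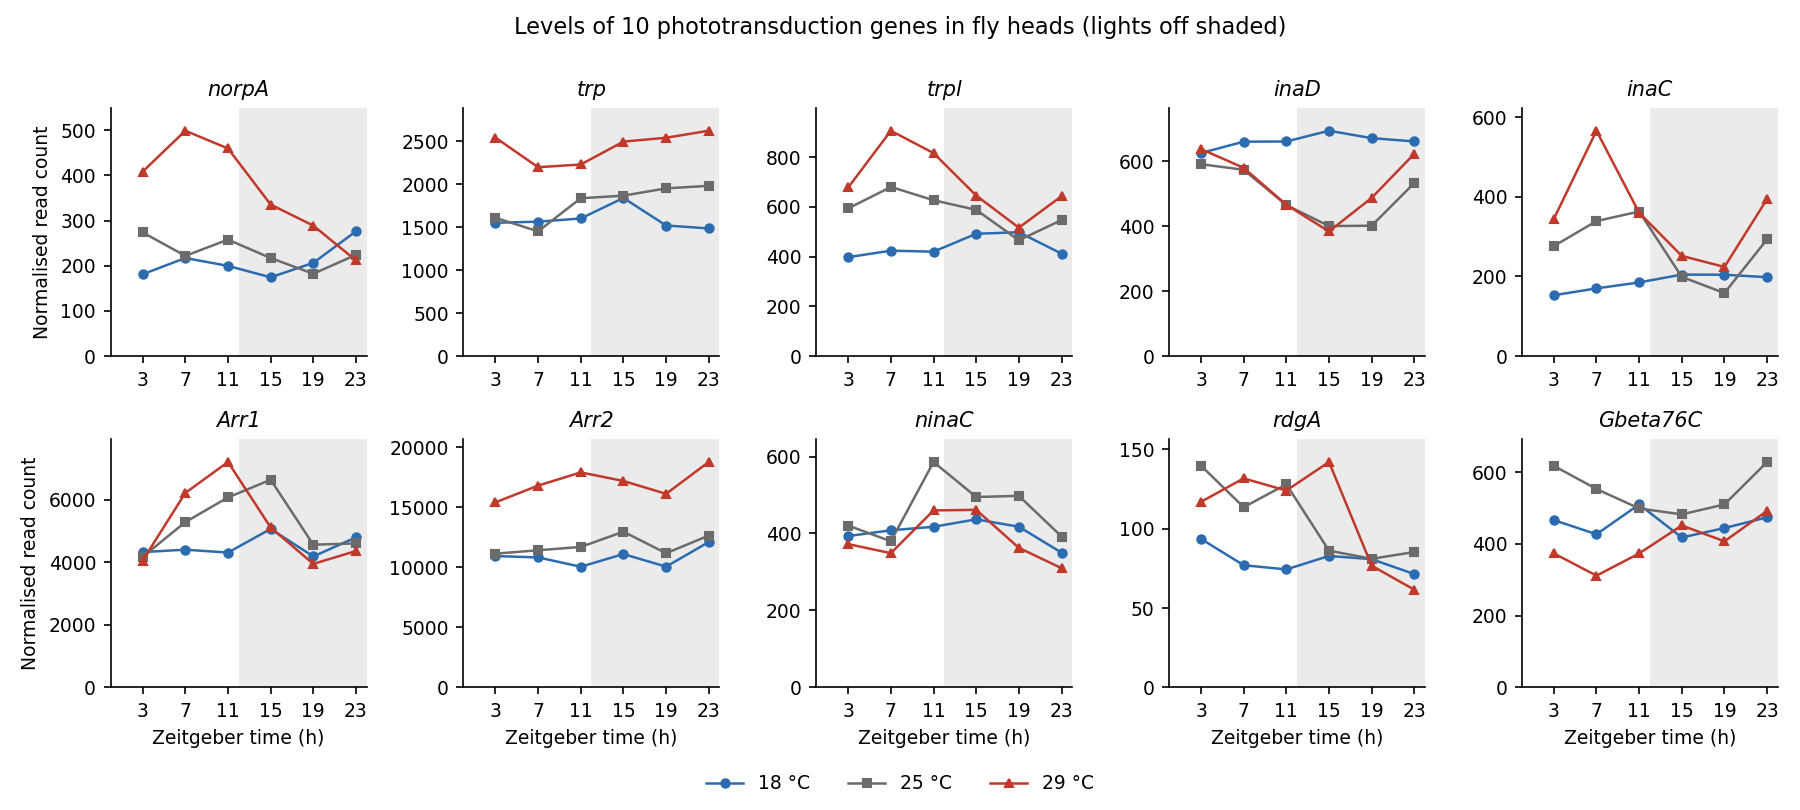
Normalised read count (vertical axis) of each of the 10 genes at 6 Zeitgeber times (horizontal axis, h) at 18°C (blue circles), 25°C (grey squares) and 29°C (red triangles), 1 column per point, with the dark phase shaded. The 6 values of Arr2 and of trp at 29°C lie above all 12 values at the other temperatures, and inaD at 18°C stays between 625 and 694 while it falls to 400.4 at 25°C and 384 at 29°C.

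Gbeta76C (3L, 19680728–19683092 on the dm3 build) encodes the β subunit of the eye Gq protein. Its normalised read counts ran from 418 (ZT15) to 510.2 (ZT11) with a median of 456 at 18°C, from 483 (ZT15) to 629 (ZT23) with a median of 532 at 25°C and from 312 (ZT7) to 492 (ZT23) with a median of 391 at 29°C. The 6 values at 29°C were each below the value at 25°C of the same time point, although the ranges overlapped. Its means were 457 ± 34.1, 549 ± 62.5 and 402 ± 63.9 at 18, 25 and 29°C (SD, n = 6), and the log2 change for 29 against 25°C was -0.46 ± 0.10 (SE; limma adjusted p = 0.00193). The mean was also lower at 18 than at 25°C, but that change of -0.26 did not pass (limma adjusted p = 0.0870). It was the only one of the 10 genes called lower at 29 than at 25°C.

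norpA (X, 4241951–4256487) encodes the phospholipase C that its G protein activates. It ran from 174 (ZT15) to 276 (ZT23) with a median of 203 at 18°C, from 182 (ZT19) to 274 (ZT3) with a median of 223 at 25°C and from 212 (ZT23) to 499 (ZT7) with a median of 372 at 29°C. At 29°C it was far above the other temperatures in the light, and at ZT23 the order of the temperatures was the reverse, with 276, 224 and 212 at 18, 25 and 29°C. The means were 209 ± 36.5, 229.6 ± 32.3 and 367 ± 109 at 18, 25 and 29°C (SD, n = 6). The log2 change was 0.63 ± 0.15 (SE; limma adjusted p = 0.00456) for 29 against 25°C and -0.77 ± 0.15 (SE; limma adjusted p = 4.07e-04) for 18 against 29°C, while the difference for 18 against 25°C was not called (-0.14, limma adjusted p = 0.614). The call for 29 against 25°C was lost without the ZT19 columns (adjusted p = 0.0523), without the 25°C ZT7 and 29°C ZT19 columns (0.112) and when columns were scaled by library size (0.0695).

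rdgA (X, 8806401–8919837) encodes the diacylglycerol kinase that removes the other product of the phospholipase. It was the gene with the fewest reads, between 31 and 174 per column. Its values ran from 71.4 (ZT23) to 93.6 (ZT3) with a median of 78.9 at 18°C, from 81.1 (ZT19) to 139.8 (ZT3) with a median of 99.9 at 25°C and from 61.5 (ZT23) to 142 (ZT15) with a median of 120.5 at 29°C. All 6 values at 18°C lay below the value at 25°C of the same time point, but the ranges overlapped. Its means were 80.0 ± 7.85, 106 ± 25.0 and 109 ± 32.2 at 18, 25 and 29°C (SD, n = 6), and none of the temperature comparisons passed: the change was -0.37 for 18 against 25°C (limma adjusted p = 0.118) and -0.38 for 18 against 29°C (adjusted p = 0.0661). The latter passed when the 18°C ZT19, 18°C ZT23 or 29°C ZT23 column was left out (adjusted p = 0.0361, 0.0390 and 0.0232). It also passed among genes with at least 10 reads in every column (0.0465).

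The channel genes trp (3R, 25740242–25746011) and trpl (2R, 5641222–5653025) encode the light-activated cation channel and its relative, which moves between the microvilli and the cell body with light. trp ran from 1486 (ZT23) to 1840 (ZT15) with a median of 1558 at 18°C, from 1452 (ZT7) to 1981 (ZT23) with a median of 1852 at 25°C and from 2198 (ZT7) to 2622 (ZT23) with a median of 2518 at 29°C. Every value at 29°C was above every value at 25 and 18°C, and the levels at 18 and 25°C overlapped. The means of trp were 1594 ± 127, 1783 ± 209 and 2438 ± 179 at 18, 25 and 29°C (SD, n = 6), and the log2 change was 0.46 ± 0.08 (SE; limma adjusted p = 3.16e-04) for 29 against 25°C, -0.16 for 18 against 25°C (limma adjusted p = 0.234) and -0.61 ± 0.08 (SE; limma adjusted p = 3.99e-06) for 18 against 29°C.

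trpl ran from 398 (ZT3) to 498 (ZT19) with a median of 422 at 18°C, from 466 (ZT19) to 681 (ZT7) with a median of 591 at 25°C and from 517 (ZT19) to 907 (ZT7) with a median of 662 at 29°C. Its order was 18°C below 25°C below 29°C at every time point except ZT19, where 18 and 25°C stood in the reverse order, and the ranges at 18 and 29°C did not overlap. The means were 441 ± 43.1, 584 ± 72.9 and 701 ± 139 at 18, 25 and 29°C (SD, n = 6). The log2 change was -0.40 ± 0.11 (SE; limma adjusted p = 0.0128) for 18 against 25°C and -0.65 ± 0.11 (SE; limma adjusted p = 4.75e-05) for 18 against 29°C, and the change of 0.25 for 29 against 25°C did not pass (limma adjusted p = 0.114). The call for 18 against 25°C was lost without the 18°C ZT7 column (adjusted p = 0.0533) and without the 25°C ZT7 and 29°C ZT19 columns (0.0565). It was also lost when the 12 columns of those temperatures were fitted alone (0.0517).

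The scaffold gene inaD (2R, 18743211–18746317) went the other way from most of its partners. It ran from 625 (ZT3) to 694 (ZT15) with a median of 661 at 18°C, from 400.4 (ZT15) to 591 (ZT3) with a median of 499 at 25°C and from 384 (ZT15) to 637 (ZT3) with a median of 533 at 29°C. All 6 values at 18°C were above all 6 at 25°C, whereas at 29°C the value at ZT3, 637, was as high as at 18°C and the lowest 3 were those at ZT11, ZT15 and ZT19. The means were 662 ± 22.1, 494 ± 84.2 and 529.5 ± 99.98 at 18, 25 and 29°C (SD, n = 6). The SD at 18°C was 3.34% of the mean, below the 4.59% that the counting of reads alone gives. The log2 change was 0.44 ± 0.10 (SE; limma adjusted p = 0.00511) for 18 against 25°C and 0.34 ± 0.10 (SE; limma adjusted p = 0.0140) for 18 against 29°C, and the difference for 29 against 25°C was not called (0.09, limma adjusted p = 0.585). The first call was lost without the ZT19 columns (adjusted p = 0.0587) and with library size scaling (0.0623). The second was lost without the 18°C ZT15 column (0.0655), the 29°C ZT15 column (0.0573), the ZT19 columns (0.0590) or the pair of columns with midgut reads (0.0531). Fitting the 12 columns of 18 and 29°C alone also ended it (0.0518).

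The lower coordinate of inaD lies within another gene of the table, RpL23 (2R, 18741901–18743219), a ribosomal protein gene with 116255 reads. Whether the counting used strand is not stated, so reads at the shared end cannot be assigned with certainty. RpL23 had means of 5940, 6067 and 7735 at 18, 25 and 29°C. Its log2 change was -0.02 for 18 against 25°C (limma adjusted p = 0.888), where inaD was higher at 18°C. For 18 against 29°C it was -0.38 (limma adjusted p = 0.000995), the opposite direction from inaD.

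inaC (2R, 12786088–12789083) encodes the eye protein kinase C bound by the scaffold. It ran from 153 (ZT3) to 205 (ZT15) with a median of 192 at 18°C, from 158 (ZT19) to 363 (ZT11) with a median of 285 at 25°C and from 224 (ZT19) to 566 (ZT7) with a median of 352 at 29°C. At 18°C all 6 values lay below all 6 at 29°C, and they lay below 25°C at 4 of the 6 time points. The means were 186 ± 20.9, 271 ± 79.4 and 357 ± 122 at 18, 25 and 29°C (SD, n = 6). The log2 change was -0.88 ± 0.16 (SE; limma adjusted p = 1.20e-04) for 18 against 29°C, the largest fall among the 10 genes, and -0.49 ± 0.16 (SE; limma adjusted p = 0.0352) for 18 against 25°C, whereas 0.38 for 29 against 25°C did not pass (limma adjusted p = 0.0959). Leaving out any 1 of the ZT3, ZT7, ZT11 and ZT23 columns at 18 or 25°C, or the 29°C ZT19 column, ended the call for 18 against 25°C (adjusted p from 0.0647 to 0.137), and without the pair of columns with midgut reads it was 0.179. That call also ended when the 12 columns of 18 and 25°C were fitted alone (0.156) and with no filter on low values (0.0808). The change for 29 against 25°C passed only when the 18°C ZT19 column was left out (0.0489) or when the 12 columns of those temperatures were fitted alone (0.0121).

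The arrestin genes Arr1 (2L, 18078266–18080423) and Arr2 (3L, 8640367–8642036) encode the proteins that bind activated rhodopsin and quench it, Arr2 being the main one for the end of the light response. Arr2 ran from 10036 (ZT11) to 12094 (ZT23) with a median of 10869 at 18°C, from 11124 (ZT3) to 12952 (ZT15) with a median of 11546 at 25°C and from 15393 (ZT3) to 18756 (ZT23) with a median of 16980 at 29°C. Its 6 values at 29°C were above all 12 others, and at each time point 18°C was below 25°C with overlapping ranges. The means were 10834 ± 765, 11827 ± 780.5 and 17017 ± 1211 at 18, 25 and 29°C (SD, n = 6), and the log2 change was 0.52 ± 0.08 (SE; limma adjusted p = 2.84e-05) for 29 against 25°C, -0.65 ± 0.08 (SE; limma adjusted p = 6.71e-07) for 18 against 29°C and -0.13 for 18 against 25°C (limma adjusted p = 0.312).

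Arr1 ran from 4182 (ZT19) to 5060 (ZT15) with a median of 4359 at 18°C, from 4169 (ZT3) to 6632 (ZT15) with a median of 4939 at 25°C and from 3943 (ZT19) to 7200 (ZT11) with a median of 4731 at 29°C. The 3 ranges overlapped, and at 25 and 29°C the level was highest at ZT15 and ZT11. Its means were 4509 ± 341, 5217 ± 964 and 5144 ± 1313 at 18, 25 and 29°C (SD, n = 6), and no comparison passed, with changes of -0.19, -0.04 and -0.16 on the log2 scale for 18°C against 25°C, 29°C against 25°C and 18°C against 29°C (limma adjusted p = 0.236, 0.849 and 0.280).

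ninaC (2L, 7377718–7384344) encodes a myosin III with a kinase domain that binds calmodulin and is needed for a normal end of the response. It ran from 350.1 (ZT23) to 437 (ZT15) with a median of 413 at 18°C, from 379.7 (ZT7) to 586 (ZT11) with a median of 458 at 25°C and from 309.8 (ZT23) to 461 (ZT15) with a median of 367 at 29°C. Its values at 29°C were below those at 25°C at all 6 time points with overlapping ranges, and 18 and 29°C crossed. The means were 404 ± 29.9, 462 ± 78.8 and 386 ± 61.8 at 18, 25 and 29°C (SD, n = 6), and the change of -0.26 for 29 against 25°C just missed the threshold (limma adjusted p = 0.0533). It passed in 9 of 29 alternatives, among them edgeR (0.0214), DESeq2 (0.00539), TMM scaling (0.0179) and the fits without the 25°C ZT7 column (0.0263), the 29°C ZT15 column (0.0487) or both columns with midgut reads (0.0475).

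**Figure D2:**
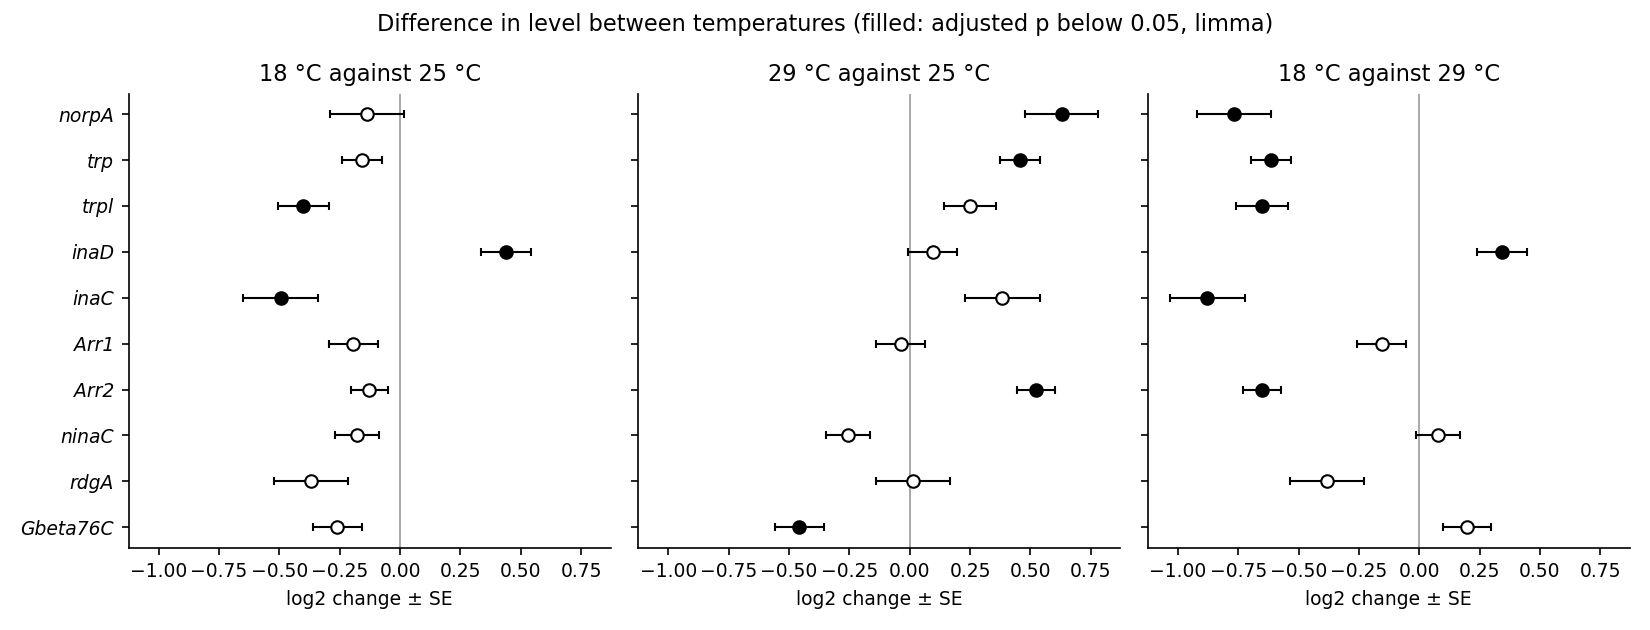
Log2 change in level between temperatures (horizontal axis) for the 10 genes (rows) in the 3 comparisons, with the limma standard error as bars and filled points at an adjusted p below 0.05. inaD lies to the right of 0 in both comparisons of 18°C (0.44 and 0.34), and Gbeta76C is the only filled point to the left of 0 at 29°C (-0.46).

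Counted together, 1 of the 10 genes was called higher and 2 lower at 18 than at 25°C, against 8.07% and 5.32% of all genes tested. At 29 relative to 25°C, 3 were higher and 1 lower, against 10.6% and 6.69%. At 18 relative to 29°C, 1 was higher and 5 were lower, against 13.3% and 14.7%. The ranges of the 6 time points did not overlap for 1 gene for 18 against 25°C (inaD), for 2 for 29 against 25°C (trp and Arr2) and for 4 for 18 against 29°C (trp, trpl, inaC and Arr2), where 6.44%, 8.01% and 12.7% of all genes did not overlap. The median log2 change of the 10 genes was -0.19, 0.17 and -0.50 in the 3 comparisons, beside -0.01, 0.04 and -0.06 over all genes tested. These comparisons share columns, so their counts are not independent of each other.

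The scaling of the columns moved these counts. When columns were scaled by library size, the median over all genes became -0.14 for 18 against 25°C and -0.13 for 29 against 25°C, and the split of calls turned from 709 higher and 468 lower to 449 and 855 at 18°C, and from 929 and 588 to 491 and 1091 at 29°C. Under that scaling 0 of the 10 genes were higher and 8 lower at 18 than at 25°C, with a median of -0.32 against the -0.14 of all genes, and norpA and inaD were the genes not called. At 29 relative to 25°C trp and Arr2 were higher and Gbeta76C and ninaC lower, and at 18 relative to 29°C the counts stayed at 1 and 5. Without the 25°C ZT7 and 29°C ZT19 columns, an alternative chosen after seeing the data, inaD alone was called for 18 against 25°C, trp, Arr2, Gbeta76C and ninaC for 29 against 25°C, and norpA, trp, trpl, inaC and Arr2 for 18 against 29°C. None of the called changes turned its direction under any alternative.

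A share within a pair of related genes does not depend on the scaling of a column. Arr1 took 28.3–31.3% of the reads of both arrestins at 18°C (median 29.2%), 26.7–34.2% at 25°C (median 30.3%) and 18.8–28.7% at 29°C (median 21.9%). The share at 29°C was below that at 25°C and at 18°C at every time point, with overlapping ranges. The mean shares were 29.4 ± 1.14%, 30.4 ± 3.27% and 22.99 ± 4.04% (SD, n = 6), a difference of -7.44 percentage points for 29 against 25°C (exact two-sided permutation test, p = 0.0130) and of 6.40 points for 18 against 29°C (p = 0.00649). After adjustment over the 8 share tests both stood at 0.0519 and missed the threshold. Matched by time point in an exact two-sided sign-flip test, all 6 differences had 1 sign in both comparisons and p was 0.0312, the smallest that 6 pairs can give, with 0.125 after adjustment. In the unmatched test both passed when 18°C ZT3 (0.0423), 18°C ZT11 (0.0461), 18°C ZT19 (0.0452), 25°C ZT23 or 29°C ZT11 (0.0346 each) was left out. The adjusted p depends on all 8 share tests. The comparison of 29 against 25°C holds no 18°C column, and its difference stayed at -7.44 points without any of the 18°C columns named. Likewise, that of 18 against 29°C stayed at 6.40 points without 25°C ZT23. In those fits only the adjustment moved.

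The trpl share of the reads of both channel genes was 20.4–24.7%, 19.3–31.9% and 16.9–29.2% at 18, 25 and 29°C. The 31.9% was that of the 25°C ZT7 column and the 16.9% that of the 29°C ZT19 column, both with midgut reads. No difference between temperatures passed, with -3.20, -2.50 and -0.70 points for 18°C against 25°C, 29°C against 25°C and 18°C against 29°C (exact permutation test, adjusted p = 0.247, 0.517 and 0.749). Pooled over the temperatures, the share was 24.9 ± 4.19% in the light and 21.1 ± 2.37% in the dark (SD, n = 9 columns each), a difference of 3.82 points that did not pass after adjustment (exact permutation test, p = 0.0290, adjusted p = 0.0772) or when columns 12 h apart were matched within a temperature (exact sign-flip test, p = 0.102, adjusted p = 0.203). The temperatures were not alike: the share was 28.1 ± 3.38% in the light and 21.6 ± 2.34% in the dark at 25°C and 25.7 ± 4.18% and 19.1 ± 1.92% at 29°C, but 20.8 ± 0.465% and 22.5 ± 1.92% at 18°C (SD, n = 3), where the dark mean was the higher and the ranges overlapped (20.4–21.3% and 21.1–24.7%). This difference between temperatures was not tested. The pooled difference passed in the unmatched test when the 18°C ZT3 (0.0423), ZT11 (0.0461) or ZT19 (0.0452) column was left out.

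**Figure D3:**
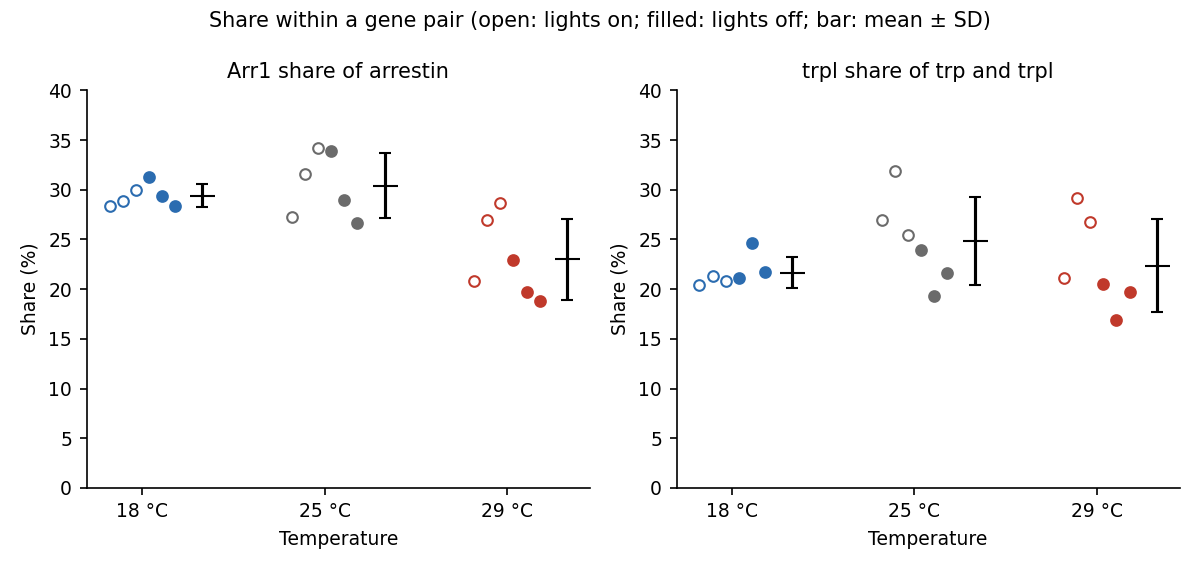
Share of reads (vertical axis, %) taken by Arr1 among both arrestin genes (left) and by trpl among both channel genes (right) at each temperature, 1 point per time point with open points in the light and filled points in the dark, and the mean ± SD of the 6 time points as a bar. The Arr1 share averages 22.99% at 29°C and 30.4% at 25°C, and the 3 trpl shares in the light lie above the 3 in the dark at 25 and at 29°C but not at 18°C, where they average 20.8% against 22.5%.

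The next comparison asked whether the cascade genes follow the cycle of light and dark. In limma with temperature as a factor, 0 of the 10 genes differed between the light phase (ZT3, ZT7 and ZT11) and the dark phase at an adjusted p under 0.05, and edgeR and DESeq2 also called 0. Over all genes limma called 0.091% higher and 0.182% lower in the light, and edgeR called 0.148% and DESeq2 0.535% in either direction. At an unadjusted limma p under 0.05 there were 4 of the 10 genes, against 8.65% of all genes. rdgA averaged 111 ± 23.9 in the light and 85.3 ± 22.7 in the dark (SD, n = 9), a log2 difference of 0.38 (limma adjusted p = 0.383). For norpA and inaC the pooled log2 difference was 0.30 each and for trp -0.14, with limma adjusted p of 0.477, 0.543 and 0.578. The pooled values of norpA and inaC do not hold at 18°C. There inaC ran from 153 to 185 in the light and from 198 to 205 in the dark, and norpA averaged 199 in the light and 219 in the dark, whereas at 25 and 29°C both averaged higher in the light (inaC 326 against 217 and 423 against 290).

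A rhythm of 24 h shared by the temperatures was called for 0 of the 10 genes in limma and in edgeR, against 0.466% and 0.626% of all genes, while in limma 6 reached an unadjusted p under 0.05, against 8.51% of all genes. The smallest unadjusted p were those of Arr1 (0.00370), ninaC (0.00374) and inaD (0.00565), whose limma adjusted p were 0.219, 0.219 and 0.279. Their fitted peaks fell at ZT11.5, ZT13.3 and ZT3.23. Over the 10 genes, fitted peaks lay in the light for norpA, trpl, inaD, inaC, Arr1 and rdgA and in the dark for trp, Arr2, ninaC and Gbeta76C.

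A test of whether the rhythm itself differed between temperatures called 0 of the 10 genes in limma, against 0.0228% of all genes, and 0 in edgeR, against 0.910%, with 5 in limma at an unadjusted p under 0.05 (inaC, inaD, norpA, trpl and Arr1) against 6.68% of all genes. For inaC, the smallest at 0.00480 (adjusted p = 0.515), the fitted peak was at ZT6.63 at 25°C and ZT5.76 at 29°C and at ZT17.1 at 18°C, where the highest value was only 1.34 times the lowest. The corresponding peaks of trpl were ZT7.91, ZT7.87 and ZT16.5, and those of inaD ZT4.12, ZT2.48 and ZT15.5. At 18°C the highest value was only 1.25 times the lowest for trpl and 1.11 times for inaD. The SD of inaD there, 3.34% of the mean, was below the 4.59% that counting of reads alone gives, so its fitted peak at 18°C marks no phase.

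Within a temperature, oscillation was tested with an exact JTK test, and a gene was called cycling at p under 0.05 with a highest value over 1.5 times the lowest. With 6 values the smallest p this test can give is 0.0333. It was not adjusted for the number of genes, and values without a rhythm reach it at that rate. The shares of all genes called, given below, lie close to that rate. At 29°C, 2 of the 10 genes were called cycling, trpl (exact p = 0.0333, highest 1.76 times the lowest) and inaD (exact p = 0.0333, 1.66 times), against 3.59% of all genes. At 25°C, 0 cycled, against 3.53%, although trpl and inaD reached the same p with ranges of 1.46 and 1.48 times, just under the limit on range. At 18°C, 0 cycled, against 3.43%, with p of 0.317 for trpl and 0.133 for inaD. trpl was highest at ZT7 and lowest at ZT19 at both 25 and 29°C, and inaD was highest at ZT3 and lowest at ZT15 at both. The columns with midgut reads thus held the highest trpl value at 25°C (681, ZT7) and the lowest at 29°C (517, ZT19). The next lowest at 29°C was 643 (ZT23). JTK was not run without these columns.

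The spread over the day was taken as the ratio of the highest to the lowest value at each temperature. Among the 9 genes with a mean of at least 100 at each temperature, 6 had their smallest ratio of highest to lowest value at 18°C, 2 at 25°C and 1 at 29°C, while 45.1% of the 1268 genes with such levels had their smallest at 18°C. The median ratio of the 9 genes was 1.24, 1.48 and 1.66 at 18, 25 and 29°C, beside 1.37, 1.42 and 1.46 over the 1268 genes. inaC went from 1.34 to 2.29 and 2.53, inaD from 1.11 to 1.48 and 1.66 and Arr1 from 1.21 to 1.59 and 1.83. Arr2 stayed between 1.16 and 1.22 at all temperatures and trp was between 1.19 and 1.37. At 29°C the lowest values of inaC (224), Arr1 (3943) and trpl (517) were those of the ZT19 column with midgut reads. The next lowest were 252 (ZT15), 4050 (ZT3) and 643 (ZT23). At 25°C the lowest values of trp (1452) and ninaC (379.7) and the highest of trpl (681) were those of the ZT7 column with midgut reads. The ratio was described and not tested, and it was not taken without those columns.

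**Figure D4:**
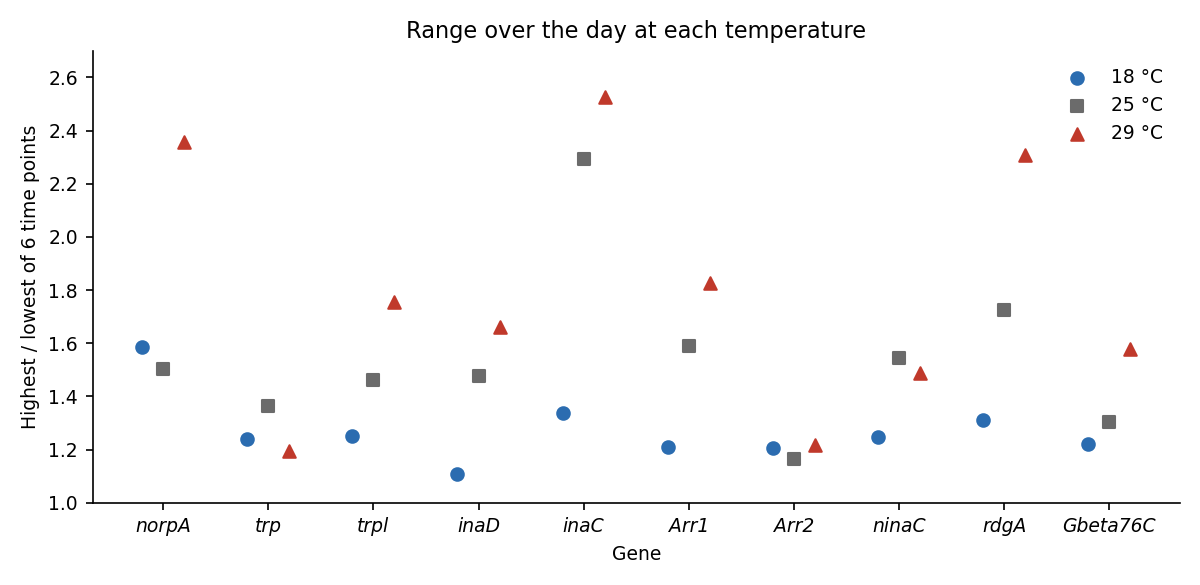
Highest value divided by the lowest of the 6 time points (vertical axis, a ratio starting at 1) for each gene at 18°C (blue circles), 25°C (grey squares) and 29°C (red triangles). inaD, inaC, Arr1 and trpl are ordered 18, 25 and 29°C, and Arr2 stays between 1.16 and 1.22. The lowest values of inaC, Arr1 and trpl at 29°C are those of the ZT19 column with midgut reads. At 25°C the lowest values of trp and ninaC and the highest of trpl are those of the ZT7 column with midgut reads.

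The rest of the pathway moved in both directions. A list of 18 other cascade genes held 17 that were tested, and trpgamma, another channel gene of the TRP family, was at 0 reads in all columns. At 18 relative to 25°C, 2 of the 17 were called higher and 5 lower, beside 8.07% and 5.32% of all genes. At 29 relative to 25°C 2 were higher and 1 lower, beside 10.6% and 6.69%, and at 18 relative to 29°C 3 were higher and 6 lower, beside 13.3% and 14.7%. Their median log2 changes were -0.34, -0.16 and -0.13.

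Lower at 18°C in at least 1 comparison were inaF-B, rdgC, PIP5K59B, Amph, CdsA, Galphaq and stops. inaF-B, needed for TRP channel function, had means of 589, 1043 and 896 at 18, 25 and 29°C, a log2 change of -0.82 (adjusted p = 1.37e-06) for 18 against 25°C and -0.61 (adjusted p = 1.74e-05) for 18 against 29°C in limma. The rhodopsin phosphatase gene rdgC changed by -0.62 (adjusted p = 0.0101) and -0.63 (adjusted p = 0.00398), and the phosphoinositide kinase gene PIP5K59B by -0.52 (adjusted p = 0.0235) and -0.90 (adjusted p = 8.31e-05). Amph, which encodes amphiphysin, changed by -0.47 (adjusted p = 0.0439) and -0.59 (adjusted p = 0.00525). CdsA, the CDP-diacylglycerol synthase of PIP2 resynthesis, was called only against 25°C (-0.39, adjusted p = 0.0318), and Galphaq, the α subunit of the G protein, only against 29°C (-0.33, adjusted p = 0.0241). stops, which keeps up the amount of the norpA phospholipase, had means of 41.2, 56.1 and 90.6, a change of 0.74 (adjusted p = 0.0196) for 29 against 25°C and of -1.18 (adjusted p = 2.01e-04) for 18 against 29°C. Without the 25°C ZT7 and 29°C ZT19 columns the call of PIP5K59B for 18 against 25°C (limma adjusted p = 0.0827) and that of stops for 29 against 25°C (0.0601) ended. The latter also ended with library size scaling (0.0922), as did that of Galphaq (0.0830), which was lost in edgeR too (0.0565), and the call of Amph for 18 against 25°C was lost in DESeq2 (0.0532).

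Higher at 18°C were laza, the phosphatidic acid phosphatase that opposes rdgA, by 0.66 (adjusted p = 0.0237) against 25°C and 0.87 (adjusted p = 0.00151) against 29°C in limma, and calmodulin (Cam), by 0.38 (adjusted p = 0.00957) against 29°C. Gprk2, a kinase of G protein-coupled receptors, was lower at 29 than at 25°C, at -0.78 (adjusted p = 0.0206), and higher at 18 than at 29°C by 0.84 (adjusted p = 0.00838). Ggamma30A, the γ subunit that pairs with Gbeta76C, was lowest at 25°C, with means of 4343, 3575 and 4650, and was higher by 0.28 (adjusted p = 0.0264) at 18°C and by 0.38 (adjusted p = 0.00263) at 29°C. Both of these calls ended with library size scaling (0.15 at 18°C, adjusted p = 0.202, and 0.19 at 29°C, adjusted p = 0.0895) and without the 25°C ZT7 and 29°C ZT19 columns (limma adjusted p = 0.0878 and 0.0547). The calls of laza for 18 against 25°C (0.0607), Cam (0.0975) and Gprk2 for 29 against 25°C (0.0755) also ended without those columns, and that of laza with library size scaling (0.0762).

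Of the 7 rhodopsin genes upstream, 0 were called higher at 29 than at 25°C, as trp and Arr2 were. ninaE, the rhodopsin of the outer photoreceptors, was highest at 25°C, with means of 12007, 18184 and 15314, and was lower at 18°C, with changes of -0.59 (adjusted p = 2.74e-04) against 25°C and -0.33 (adjusted p = 0.0168) against 29°C in limma. Its change of -0.26 (adjusted p = 0.0873) for 29 against 25°C did not pass, but it did with library size scaling, TMM scaling, edgeR and DESeq2. Rh3 changed by -0.28 (adjusted p = 0.0467) for 18 against 25°C, and Rh5 by -0.49 (adjusted p = 0.00456) for 18 against 29°C. The means of Rh5 rose in steps, with 161, 188 and 229 at 18, 25 and 29°C, but its change of 0.30 for 29 against 25°C did not pass (limma adjusted p = 0.107). Rh4 was lower at 29 than at 25°C, at -0.43 (adjusted p = 0.00195), and was higher at 18 than at 29°C by 0.45 (adjusted p = 6.90e-04). The other 3 of the 7 rhodopsin genes were not called. Of 6 genes for the chromophore and rhodopsin maturation, santa-maria, a carotenoid receptor gene, was higher at 18°C by 0.45 (adjusted p = 0.0134) and 0.38 (adjusted p = 0.0208), ninaB, the carotenoid oxygenase gene, by 0.47 (adjusted p = 0.0252) against 29°C, and ninaG, an enzyme gene of chromophore synthesis with means of 8.52, 13.6 and 22.6, changed by -1.67 for 18 against 29°C (adjusted p = 0.00607). Without the 25°C ZT7 and 29°C ZT19 columns the calls of ninaE (limma adjusted p = 0.0805), ninaB (0.0782) and ninaG (0.0537) for 18 against 29°C and of Rh3 for 18 against 25°C (0.0557) ended, and that of santa-maria for 18 against 25°C ended with library size scaling (0.0964).

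Of 29 calls among these 30 genes over the 3 temperature comparisons, 6 were lost and 8 gained with library size scaling, 0 lost and 1 gained with TMM scaling, 1 lost and 1 gained in edgeR, 1 lost and 4 gained in DESeq2, and 11 lost and 0 gained without the 25°C ZT7 and 29°C ZT19 columns, with 0 turned in direction. No gene of these lists was called between light and dark in limma or edgeR, and Cam alone was called in DESeq2 (adjusted p = 0.0422).

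**Figure D5:**
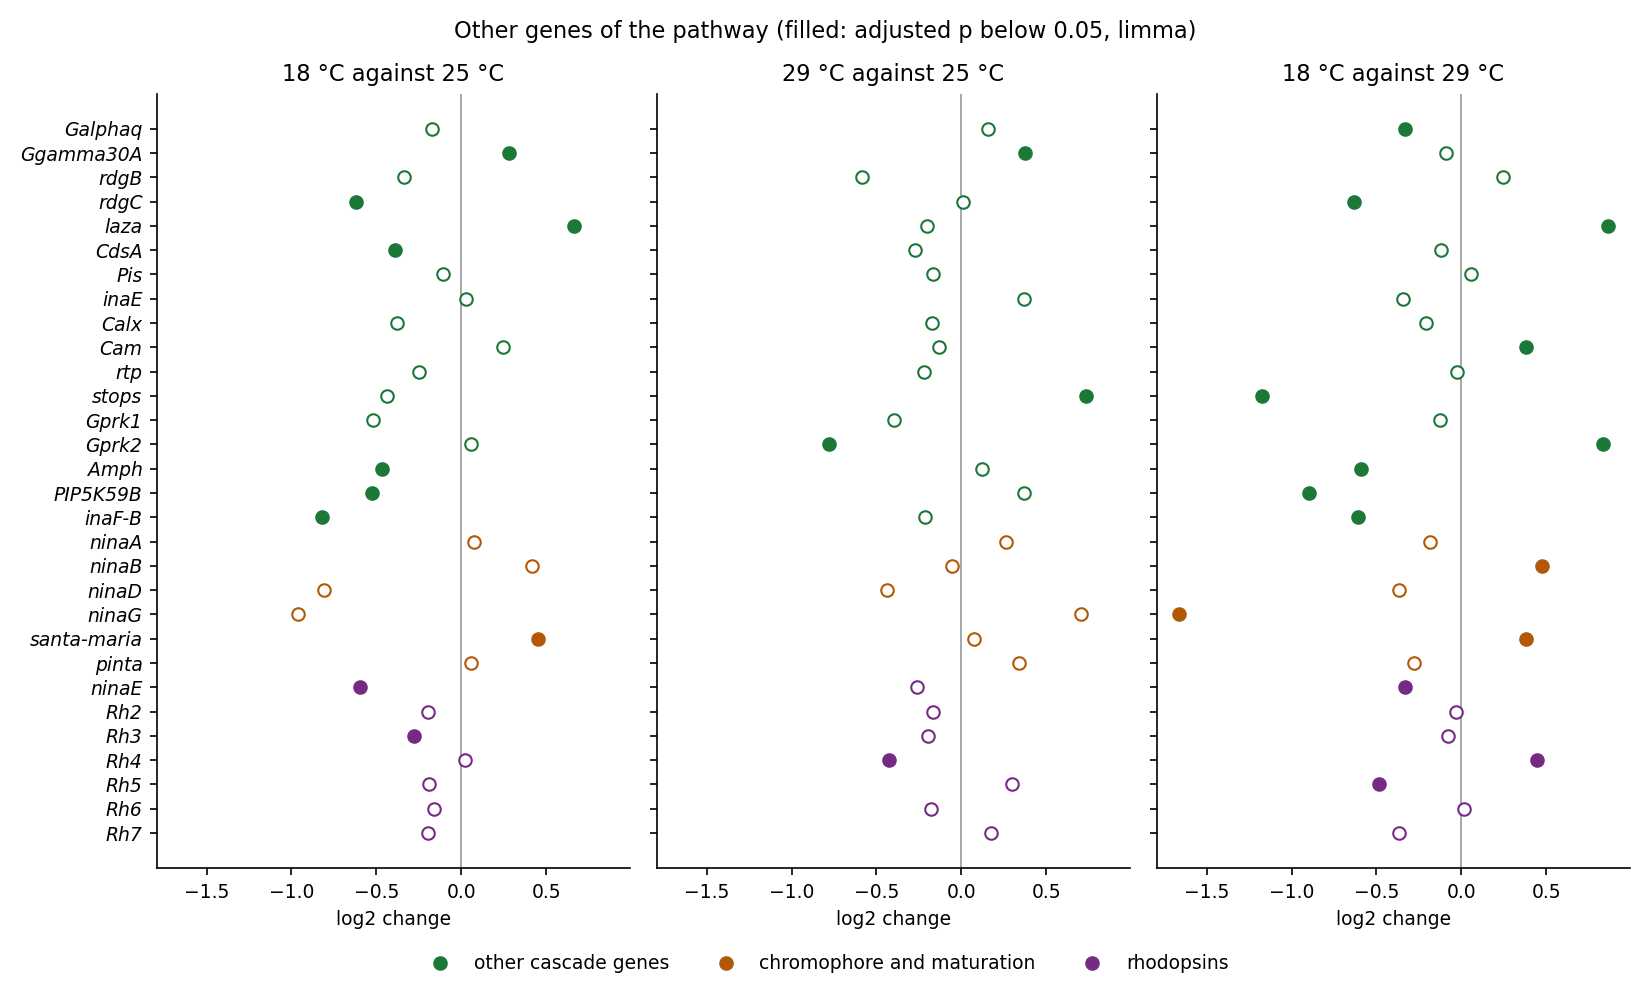
Log2 change between temperatures (horizontal axis) for 17 other cascade genes (green), 6 genes of the chromophore and rhodopsin maturation (orange) and 7 rhodopsin genes (purple), with filled points at a limma adjusted p below 0.05. inaF-B (-0.82) and rdgC (-0.62) lie to the left of 0 at 18°C against 25°C and laza (0.66) to the right, and stops and Gprk2 are the points farthest from 0 in opposite directions at 29°C against 25°C.

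Among markers of the eye outside this cascade, chp, which encodes chaoptin of the photoreceptor membrane, was higher at 29 than at 25°C by 0.32 (adjusted p = 0.0441) in limma and lower at 18 than at 29°C, at -0.47 (adjusted p = 0.00190). The first of these did not pass with library size scaling, TMM scaling, edgeR, DESeq2 or without the pair of columns with midgut reads (adjusted p from 0.0577 to 0.446). eys, a protein of the space between the photoreceptors, was lower at 29 than at 25°C, at -1.18 (adjusted p = 2.57e-05), and was higher at 18 than at 29°C by 0.77 (adjusted p = 0.00147). Crys, a lens protein gene of the cone cells, fell stepwise with temperature, with means of 217, 75.6 and 26.8 and log2 changes of 1.55 (adjusted p = 0.00218), -1.57 (adjusted p = 0.00130) and 3.12 (adjusted p = 9.77e-08), and its calls against 25°C did not pass without the 25°C ZT7 and 29°C ZT19 columns (0.0744 and 0.0680). Of the pigment cell genes, Pdh was higher at 18 than at 29°C by 0.33 (adjusted p = 0.0309, and 0.149 without those columns) and bw, an eye pigment transporter gene, was lower, at -0.97 (adjusted p = 0.00447). The other photoreceptor and accessory markers (Hdc, prom, gl, Pph13, w and st) were not called.

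Of the 10 cascade genes, rdgA and ninaC had transcripts with a second 3′ end in the table. The second end of rdgA took 26.9–35.7, 14.7–31.2 and 13.4–31.3% of the gene's reads at 18, 25 and 29°C, with overlapping ranges and means of 29.8 ± 3.39%, 22.6 ± 6.72% and 24.9 ± 6.56% (SD, n = 6), a description with no test. That of ninaC took at most 2.35%. CG10962, which overlaps rdgA in the table, had 866 reads against the 1692 of rdgA and went the other way, with means of 94.2, 39.6 and 29.5 at 18, 25 and 29°C. Its log2 change was 1.34 for 18 against 25°C (limma adjusted p = 0.00151). Whether reads of that gene and of rdgA were shared was not tested.

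The 10 genes did not form 1 profile over the 18 columns. The Pearson correlation of each gene with their mean profile, which contains the gene itself, ran from 0.95 for trpl, 0.87 for inaC and 0.80 for norpA to -0.32 for Gbeta76C and -0.39 for inaD, and it was 0.11 for ninaC. The genes outside the 10 with the profile closest to that mean were Lk6, a kinase gene (r = 0.86), CG34309 (0.86), the ribosomal protein gene RpS3A (0.85), CG14408 (0.85) and the chaperone gene Hsc70-4 (0.84). Their means at 18, 25 and 29°C were 426, 534 and 668 for Lk6, 3499, 4094 and 4664 for RpS3A and 1510, 2288 and 2429 for Hsc70-4. These correlations describe 18 columns that share libraries and scaling and carry no test.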

How the data were processed

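RNA from fly heads was sequenced by 3′ RNA-seq. The authors deposited 21081 transcripts by 18 columns of normalised signal, 1 column per temperature and time point. Of these signal values, 100% were whole reads (within 0.001 reads) times 1 step per column, so whole reads were recovered. The submitters' processing notes name Bowtie2, TopHat, Cufflinks and the dm3 build. Whether a column holds 1 or both of the 2 labelled libraries of its group, and whether strand was used, are not given in the sources used here. Each gene was represented by its transcript with the most reads, and symbols came from RefSeq.

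Genes passing filterByExpr (8791) were fitted in limma 3.58.1 (R 4.3.3) on log2(value + 1), the pseudocount being 1, over all 18 columns. Temperature and time point were factors for temperature, and temperature with light phase, or with a cosine and a sine of 24 h, for the day. Cycling used an exact JTK test over 6 phases (Python 3.11.15, scipy 1.17.1), and shares an exact permutation test. edgeR 4.0.16 and DESeq2 1.42.0 on the recovered reads were alternatives. edgeR called 1172, 1566 and 2296 genes in the 3 temperature comparisons. Other alternatives changed the pseudocount, scaling, filter and columns. The scripts were tested on simulated data.

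The 10 genes, the gene lists and the tests were chosen with earlier results of these data known. The text names all 10 genes, every gene called in the lists of the pathway and the eye, and the 5 genes with the closest profile. RpL23, CG10962 and other tissue markers were named after their values were seen.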

Additional observations from a re-analysis of the deposited data

Results flagged for a closer look

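In a check for a single value far from the rest of its group, 1 of 30 groups of 6 time points stood out, and chance flags about 1 in 20 groups. It was trp at 18°C, where the ZT15 column held 1840 normalised reads, the nearest of the other 5 held 1601 and the lowest 1486. The gap to the nearest value was 0.673 of the range, above the critical value for 6 values.

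The trpl share of the channel reads stood in opposite orders in light and dark at different temperatures. Between columns 12 h apart, all 3 differences (light minus dark) were below 0 at 18°C, from -3.36 to -0.69 percentage points, and all 3 were above 0 at 25°C (3.01 to 12.6 points) and at 29°C (0.513 to 12.3 points). The largest difference at 25°C and at 29°C was that between ZT7 and ZT19. It involved the 25°C ZT7 column (31.9%) and the 29°C ZT19 column (16.9%), both with midgut reads. The mean difference at 18°C minus that at 25°C was -8.15 points, and minus that at 29°C it was -8.31 points. The difference between the temperatures was not tested.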

How the results depend on the processing

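Of 1720 results for single genes under alternatives, 1671 kept their side of the threshold, 25 lost and 24 gained a call, and 0 of the called changes turned direction. Changes that were not called could turn. inaD for 29 against 25°C went from 0.09 to -0.09 with library size scaling (limma adjusted p = 0.585 and 0.615). The rhythm tests among these results have no direction. The count of genes called between 18°C and 25°C, 3 of the 10, became 8 with library size scaling, 5 in DESeq2, 1 when the 12 columns compared were fitted alone, 1 without the 25°C ZT7 and 29°C ZT19 columns and 1 to 3 when single columns were left out, with 1 without 18°C ZT7. Between 29°C and 25°C the count was 4 to 5 when single columns were left out, and between 18°C and 29°C 5 to 7. Under JTK, 2 genes were called cycling at 25°C with no rule on amplitude, and 0 at 29°C with an amplitude over 2. Leaving out single columns gave an Arr1 share difference of -8.58 to -6.61 points between 29°C and 25°C and of 5.57 to 7.54 points between 18°C and 29°C, and a trpl share difference between light and dark of 2.94 to 4.38 points, with 5, 5 and 3 of 18 such fits past the threshold. Some Arr1 fits past the threshold left out a column outside the comparison, so that only the adjustment over the 8 share tests moved. The cause of changes in these results was not tested. No paired analysis was possible because the 18 columns carry no replicate numbers, with 1 column for the 2 libraries of each group, and columns were matched by time point instead, as a factor in the temperature fits and in the sign-flip test of the shares. Depth limits rdgA most, with 31 to 174 reads per column. Over all genes, the light and dark calls ranged from 0 to 27 when single columns were left out.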
